A study of Drosophila melanogaster with 2 samples.

Results

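The genes described are 39 members of the insulin, TOR and Hippo growth-control pathways of Drosophila melanogaster, out of 13968 protein-coding genes on the chromosome arms. They were taken from a fixed list of symbols and grouped by role, as 8 ligands, 4 cell-surface or Golgi proteins, 7 intracellular kinases, 14 intracellular regulators and 6 transcription factors. The measurement was chromatin immunoprecipitation followed by sequencing (ChIP-seq) of MBD-R2. It was made in whole embryos collected over 0 to 24 h from a transgenic line that carries an insertion expressing MBD-R2 fused to eGFP, and both samples came from that line. Chromatin was sonicated to 200 to 800 bp and precipitated through the eGFP tag with an antibody against GFP. There was 1 group with 2 biological replicates, so no condition was compared, and the control libraries that the labels point to were not analysed here.

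MBD-R2 is a chromatin protein of the NSL complex, which also holds the histone acetyltransferase MOF and binds promoters of broadly active genes in flies. Insulin-like peptides act through a surface receptor, a lipid kinase and Akt to restrain the Tsc1-gig brake on the GTPase Rheb, and Rheb activates the kinase TOR, which drives protein synthesis and cell growth. The Hippo pathway is a kinase cascade, fed by cadherins and by FERM and WW domain proteins at the cell cortex, that holds the growth-promoting coactivator Yorkie (yki) out of the nucleus.

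A gene was called bound when at least 1 of its transcription start sites (TSSs) had a peak summit of the main list within 500 bp. The main list is the authors' series-level list of peaks thresholded at an irreproducible discovery rate (IDR, a measure of how well peak ranks repeat between compared lists) of 0.01. A gene's value was the signal of its strongest such peak. The signal is the authors' own value per peak, its scaling is not stated, and the depth of the libraries is unknown, so it was used to rank peaks within a list. The main list held 7544 peaks, against 4113 in the replicate 1 list and 7542 in the replicate 2 list. Peaks in whole embryos cannot tell strong binding in few cells from weak binding in many.

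MBD-R2 peaks lay at 20 of the 39 growth-control genes (51.3%), and at 44.0% of all protein-coding genes. They sat at genes for intracellular proteins: 12 of 14 regulators, 4 of 7 kinases and 4 of 6 transcription factors had one, together 20 of 27 (74.1%). None of the 8 insulin-like peptide genes had a promoter peak in the main list, and none of the 4 genes for surface or Golgi proteins. In the unthresholded ranking 34 members had a peak, against 76.7% of all protein-coding genes, and among main-list peaks of the top deposited score, 1000, 19 did, against 41.7%. By pathway, peaks were found at 8 of 9 genes of the TOR branch, 6 of 12 of the Hippo branch, 2 of 3 of the Myc network and 4 of 15 of the insulin branch. Without the ligands the insulin branch had 4 of 7 (57.1%).

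In the main list the bound growth-control genes had peaks of about the usual median strength, though weak peaks were common among them. Their median signal was 175.1 (range 52.6 to 464.3), against 170.3 over all 6151 bound protein-coding genes, whose weakest and strongest 10 percent lay below 77.6 and above 367.7. Of the 20 bound members, 11 were above that median and 6 were in the weakest 10 percent. By role the median was 186.4 for regulators, 168.1 for kinases and 97.9 for transcription factors, and the ranges of these roles overlapped. Genes are not replicates of one another and Ilp1 to Ilp5 lie in 1 cluster, so these counts and medians are descriptions of the lists and carry no test.

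**Figure D1:**
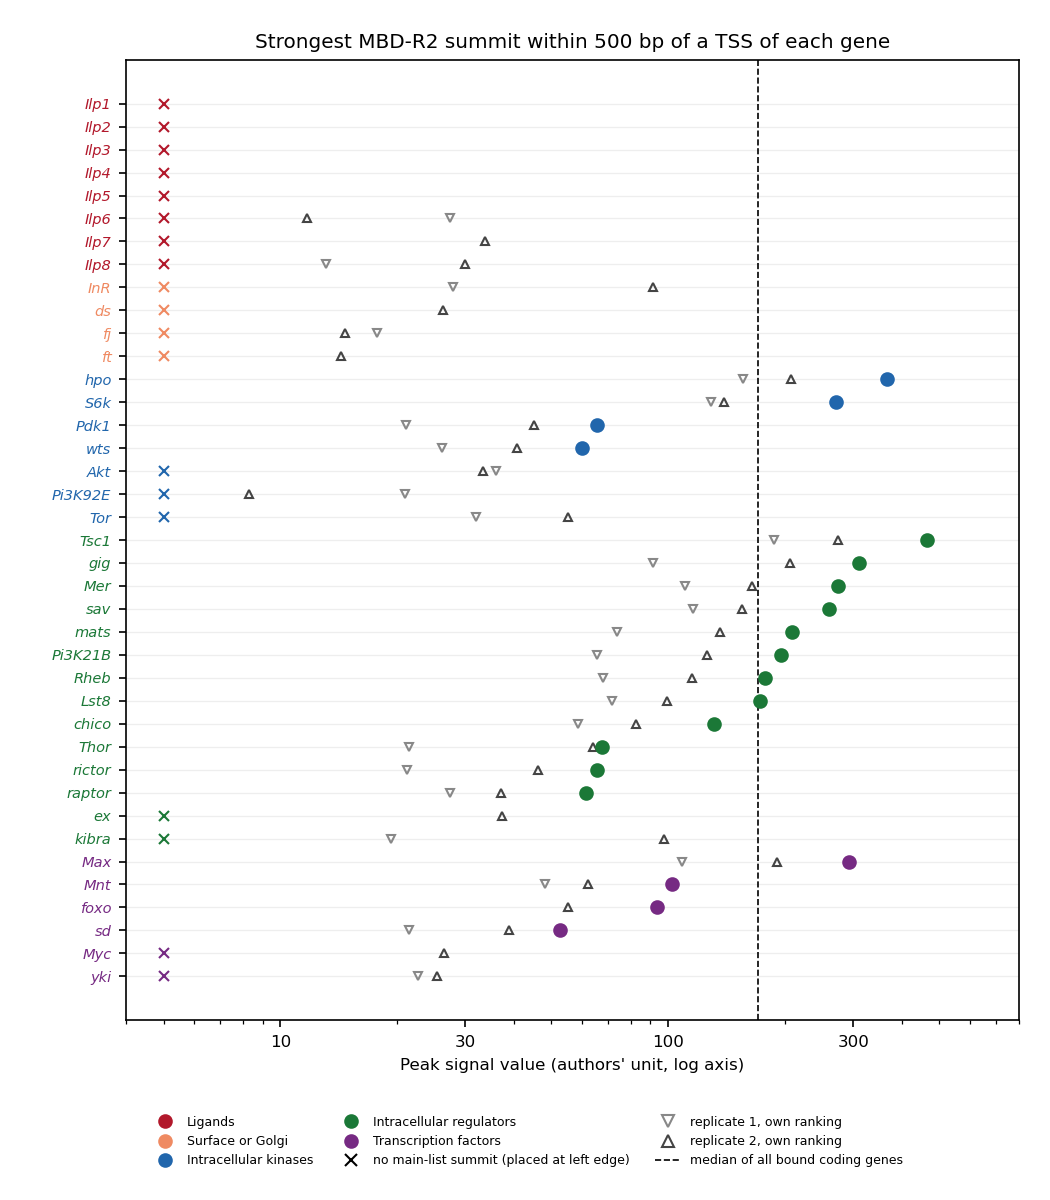
Signal of the strongest MBD-R2 peak at each of the 39 genes (log axis, authors' unit), grouped by role from ligands at the top to transcription factors at the bottom. Filled circles are the main list, triangles are the strongest promoter peaks in each replicate's own unthresholded ranking, and crosses are genes with no main-list summit within 500 bp of a TSS. The dashed line is the median of all bound protein-coding genes, 170.3, and every circle belongs to an intracellular kinase, regulator or transcription factor.

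The lack of calls at ligands and surface or Golgi genes also appeared in each replicate's own thresholded list, as the plot of shares by list shows. In the replicate 2 list 22 members were bound, with a share of 43.5% over all protein-coding genes, and in the smaller replicate 1 list 11 members, with a share of 33.2%. Neither list held a promoter peak at a ligand or at a surface or Golgi gene. Regulators had 8 of 14 bound in replicate 1 and 12 of 14 in replicate 2. Kinases had 2 and 5 of 7, and transcription factors 1 and 5 of 6. In replicate 1 only the regulators were above the share over all protein-coding genes, while kinases and transcription factors were below it. In replicate 2 all 3 of these roles were above it. In the conservative list 14 members were bound, against 39.7% of all protein-coding genes, and in the stronger 50 percent of the main list 12 were, against 32.0%. A window of 250 bp gave 19, against 39.5%, and the 5′-most TSS alone 18, against 42.0%.

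**Figure D2:**
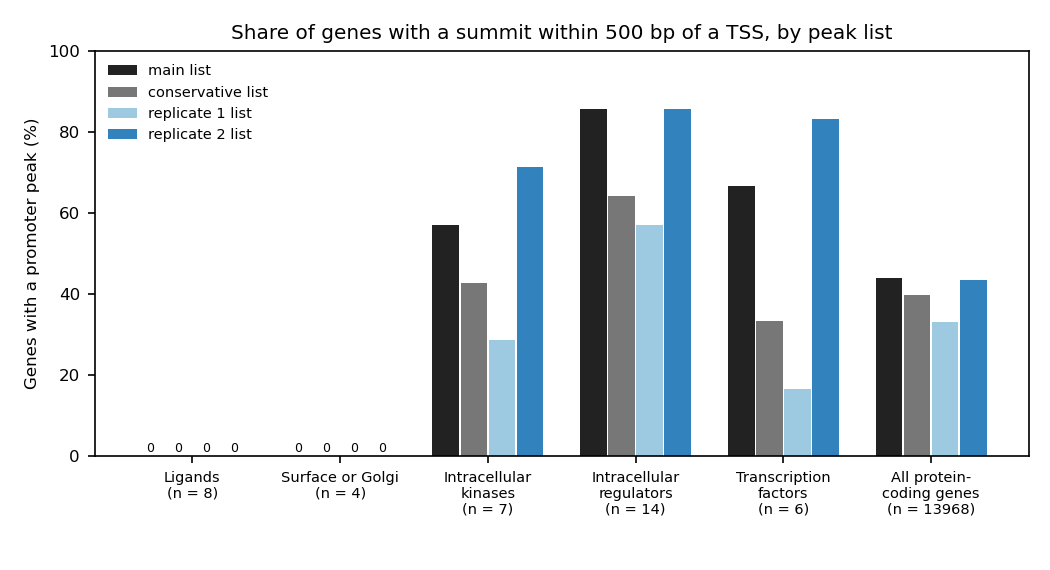
Percent of the genes of each role, and of all protein-coding genes at the right, with a summit within 500 bp of a TSS in the main, conservative, replicate 1 and replicate 2 lists. Ligands and surface or Golgi genes are at 0 in all 4 lists, and regulators are at 85.7% in the main list.

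Several short sequences are known from fly promoters and were searched in the 300 bases from 250 before the 5′-most TSS, on both strands. The DNA replication-related element (DRE, TATCGATA), bound by the factors DREF and BEAF-32, and the core of Motif 1 (GGTCACAC), bound by M1BP, belong to promoters of housekeeping genes. The letters GAGAGAG, called the GAGA repeat here, are bound by GAGA factor, which is known from regulated promoters. The Myc and Max E-box (CACGTG), a forkhead site (GTAAACA) and a Scalloped site (GGAATG) are sites for transcription factors of the members' own pathways. No motif contains another, though GAGA overlaps itself in longer repeats. DRE was found in 18.6% of promoters bound at the 5′-most TSS (a call made for 42.0% of all protein-coding genes), in 2.68% of unbound promoters and in 9.36% of all. For Motif 1 these shares were 16.1%, 1.58% and 7.69%, and for GAGA 3.56%, 7.52% and 5.86%. A match is a description of the letters and not a binding site.

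Ilp1 to Ilp8 encode the secreted insulin-like and relaxin-like peptides that start the insulin branch, several of them made by neurosecretory cells. Ilp1 to Ilp5 lie within 25.5 kb of chromosome 3L and had no summit within 500 bp even in the main ranking, which lists 100373 peaks with no threshold, nor in the replicates' rankings. The cluster with 500 bp on either side held 13 summits of that ranking, the strongest at 37.5, and 0 of the main list. The nearest main-list summit was 12.9 kb from the TSS of Ilp5, with a signal of 239.2, at the gene I-2. Weak peaks in the ranking lay at the other ligands. Ilp6, known from the fat body, had 20.5 (IDR 0.38), with 27.3 in replicate 1 and 11.7 in replicate 2. Ilp7, a neuronal peptide, had 45.6 (IDR 0.56), with 33.6 in replicate 2 and none in replicate 1. Ilp8, the relaxin-like peptide by which damaged discs delay metamorphosis, had 43.7 (IDR 0.5), with 13.1 in replicate 1 and 29.9 in replicate 2. All 3 IDR values were far above the threshold of 0.01. Main-list summits came no nearer than 2.8 kb to Ilp6, 3.6 kb to Ilp8 (the peak of the gene beg, 266.9) and 3.9 kb to Ilp7 (the Parg peak, 102.1).

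The ligand promoters held neither DRE nor the Motif 1 core, and 2 of the 8 held GAGA. Those are Ilp6 (chrX:2334629-2334778, minus strand, dm6) and Ilp8 (chr3L:17032051-17032255, minus strand, dm6), shown because they carry pathway-linked motifs without a called peak. Capitals mark an E-box and then GAGA read on the other strand in Ilp6, and a run of GAGA on the other strand and then a Scalloped site in Ilp8.
Ilp6: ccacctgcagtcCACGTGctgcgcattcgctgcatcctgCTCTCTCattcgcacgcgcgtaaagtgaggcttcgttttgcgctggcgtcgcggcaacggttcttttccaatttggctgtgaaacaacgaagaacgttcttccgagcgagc
Ilp8: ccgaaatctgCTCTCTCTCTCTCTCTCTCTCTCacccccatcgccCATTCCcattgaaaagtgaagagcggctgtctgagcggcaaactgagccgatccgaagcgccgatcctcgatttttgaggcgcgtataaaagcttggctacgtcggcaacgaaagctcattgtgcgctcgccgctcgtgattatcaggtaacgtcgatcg
The E-box of Ilp6 began 108 bp before its 5′-most TSS and the GAGA match 81 bp before it. The GAGA run of Ilp8 gave 9 overlapping matches. Scalloped sites were also found at Ilp2 and Ilp7, and this motif occurred in 9.37% of bound promoters, 12.1% of unbound ones and 10.9% of all. The median GC content of the ligand promoters was 47% (range 39.3 to 53.7), against 40% over all promoters unbound at the 5′-most TSS and 36% over bound ones.

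At the cell surface, InR encodes the insulin receptor tyrosine kinase, and ft and ds the giant cadherins Fat and Dachsous, which bind each other between neighbouring cells. The Golgi kinase Four-jointed, encoded by fj, phosphorylates their cadherin domains. InR came closest to a call, through 2 strong peaks away from its 4 TSSs. The first, 209.2 in the main list with 162 in the ranking of replicate 2 and none in that of replicate 1, lay in an intron 654 bp upstream of the most downstream TSS. The second, 198.5 with 79.7 in replicate 1 and 116.9 in replicate 2, lay in an exon 9.9 kb from the nearest TSS. Within 500 bp of a TSS the main ranking gave InR a peak of 114.4 at an IDR of 0.00087, with 27.8 in replicate 1 and 91.4 in replicate 2. That peak passes the threshold, yet it is 1 of 202 such peaks on the arms that the main list does not hold, for a reason that the labels and headers do not state. The 3 others were far from main-list summits: 2.5 kb for ft, 25.3 kb for ds and 44.5 kb for fj. Their own ranking peaks were weak, at 23.6 for ft, 11.7 for ds and 34.3 for fj. All 3 of ft, ds and fj had GAGA in the promoter and neither DRE nor Motif 1.

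Among the intracellular kinases the peaks fell into a strong pair and a weak pair. Hippo itself (hpo), the upstream kinase of its cascade, had 366.5 (rank 625 of 6151 bound genes), with 156.1 in replicate 1 and 207.5 in replicate 2. The summit lay 45 bp upstream of its single TSS with no other gene's TSS within 500 bp. S6k, the TOR target that phosphorylates a ribosomal protein, had 270.7, with 128.8 in replicate 1 and 138.9 in replicate 2. Its summit lay 49 bp upstream and only 7 bp from the TSS of the divergent gene kri. Pdk1, the kinase that activates Akt, had 65.6, with 45.0 in replicate 2 and no peak within 200 bp of the summit in the ranking of replicate 1, whose strongest peak near another TSS of Pdk1 was 21.1. Its summit lay 256 bp upstream of the second of its 6 TSSs and 15 bp from the TSS of a non-coding RNA on the other strand, with a weaker summit of 51.2 at 27 bp. Warts (wts), the kinase that phosphorylates Yorkie, had 60.1, with 26.1 in replicate 1 and 40.8 in replicate 2. Pdk1 and wts were in the replicate 2 list and in neither the replicate 1 nor the conservative list.

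The 3 kinases without a call each had a summit just outside the window. Pi3K92E, the catalytic subunit of the lipid kinase, had one of 129 in an exon 582 bp downstream of its TSS, with 24.2 in replicate 1 and 99.7 in replicate 2. Akt, the central kinase of the insulin branch, had one of 91.3 in an intron 625 bp downstream, with 39.3 in replicate 1 and 73.4 in replicate 2. Tor had one of 134 at 582 bp upstream that lay 209 bp from a TSS of Vha68-1, a proton pump subunit. Tor was bound in the conservative list (81.4) and in the replicate 2 list (36.3), while its peak in the main ranking had an IDR of 0.53. With a window of 1000 bp all 7 kinases were bound, against 47.4% of all protein-coding genes. The most distant summits called inside the window were those of Mnt (267 bp), Pdk1 (256 bp) and sd (254 bp), and no member had a strongest summit between these and 582 bp.

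DRE copies occurred at the bound kinases hpo and wts. None was found at S6k or at the 5′-most TSS of Pdk1, which was not its bound TSS. Copies also occurred at Pi3K92E, whose nearest summit lay just outside the window, at 582 bp. The wts promoter (chr3R:30806590-30806689, minus strand, dm6) held 3 and the Pi3K92E promoter (chr3R:20634703-20634812, minus strand, dm6) held 2. They are shown because wts was bound over its copies, at 17 bp downstream, while Pi3K92E was not called. Capitals mark DRE.
wts: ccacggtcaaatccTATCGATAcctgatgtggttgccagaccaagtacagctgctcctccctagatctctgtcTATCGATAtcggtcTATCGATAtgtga
Pi3K92E: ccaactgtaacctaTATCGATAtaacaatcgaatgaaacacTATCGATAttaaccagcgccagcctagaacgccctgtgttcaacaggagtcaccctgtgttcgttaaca
The copies began 56 bp before and 3 and 17 bp after the TSS in wts, and 66 and 39 bp before it in Pi3K92E. The hpo promoter also held a DRE, 136 bp upstream. Pi3K92E and hpo were the members with a forkhead site, the kind bound by FOXO, which occurred in 11.6% of bound promoters, 7.42% of unbound ones and 9.19% of all. Akt had GAGA and no DRE.

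The 14 regulators had the highest share of bound genes, 85.7%. Tsc1 and gig, whose products form the complex that shuts off Rheb, had the strongest and the third strongest peaks of all members. Tsc1 had 464.3 (rank 261), with 187.2 in replicate 1 and 273.4 in replicate 2. The summit lay 48 bp upstream of Tsc1 and 4 bp from the TSS of GatB, a subunit of the mitochondrial glutamyl-tRNA amidotransferase, which starts 52 bp away on the other strand. The gig gene (Tsc2) had 309.5, with 91.4 and 205.9 in replicates 1 and 2, at 40 bp downstream of its own TSS and with no neighbour. Rheb had 177.7, with 67.7 in replicate 1 and 115.3 in replicate 2. Its summit lay 137 bp upstream, nearer to Rheb than to CG2931 on the other strand (169 bp). The Tsc-Rheb switch had a called promoter peak at each of its 3 genes, against 44.0% of all protein-coding genes. If only the gene with the nearest TSS counted, the Tsc1 call was lost.

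The insulin adaptors were also bound. Chico, the insulin receptor substrate, had 131.5 at 6 bp upstream, with 58.4 in replicate 1 and 82.7 in replicate 2. Pi3K21B, the adaptor subunit that brings the lipid kinase to the receptor, had 195.2 at 2 bp downstream, with 65.7 and 125.8 in replicates 1 and 2. The replicate 1 peak of Pi3K21B was in the ranking and not in the thresholded list. Thor, a translation repressor that TOR inactivates and FOXO induces, had 67.5 at 28 bp downstream. Within 200 bp of that summit it had 15.1 in replicate 1 and 64.1 in replicate 2. The strongest replicate 1 peak within the window was another, of 21.4, which gives a ratio of 2.99 between the replicates' strongest peaks. With a deposited score of 851, where the lowest in the list was 830, and an IDR of 0.0089, Thor was the member nearest to the threshold from inside. The nearest from outside without passing was Akt, whose best ranking peak had an IDR of 0.024.

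Partners of TOR differed in strength. Lst8, shared by both TOR complexes, had 172.5 at 10 bp downstream, with 71.7 in replicate 1 and 99.2 in replicate 2. Rictor, which defines the complex that acts on Akt, had 65.6 at 151 bp downstream, with 21.2 in replicate 1 and 46.1 in replicate 2. Raptor, which brings S6k and Thor to TOR, had 61.5 at 4 bp upstream, with 27.3 in replicate 1 and 37.1 in replicate 2. Raptor was the bound member in neither replicate's thresholded list. These 3 genes are X-linked, as are 9 of the 39 members. Of the X-linked members 6 were bound, with a median of 83.9, against 47.4% of the 2196 X-linked protein-coding genes, with a median of 138.8. Of the other 30 members 14 were bound, with a median of 201.6, against 43.4% of protein-coding genes not on the X, with a median of 177.3. X-linked genes thus had the lower median among the members and among all bound protein-coding genes, and the 6 and 14 values carry no test.

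The cores of the Hippo cascade were bound at 4 of 4 genes (hpo, sav, wts and mats), against 44.0% of all protein-coding genes. Of these, hpo and mats were bound in every thresholded alternative. The call at wts was absent from the conservative and replicate 1 lists. That at sav was lost if only the nearest TSS counted or a peak had to cover a TSS. Salvador (sav), the scaffold that brings hpo to wts, had 259.5, with 115.7 in replicate 1 and 155.4 in replicate 2. Its summit lay 155 bp upstream of sav and 34 bp from the TSS of Ublcp1. Mats, the Mob protein that activates wts, had 208 at 32 bp upstream, with 73.9 in replicate 1 and 136.1 in replicate 2, and the TSS of Nop56, a nucleolar protein gene, lay 61 bp from the summit. Of the cortical regulators, Mer, the Merlin homologue, had 273.3, with 110.5 in replicate 1 and 164.9 in replicate 2. Its summit lay 101 bp downstream of its TSS, and a second one of 86 lay 99 bp upstream.

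The other cortical regulators had no call. Expanded (ex), a FERM protein and a known target of Yorkie, had its nearest main-list summit 1019 bp upstream, at 56.1, and a peak of 37.3 in the replicate 2 list within the window. Kibra, the WW domain partner of Merlin, had a ranking peak of 102.9 within 500 bp of its TSS. The IDR of that peak was 0.00059, and it is another of the 202 peaks that the main list leaves out. Kibra had 19.3 in replicate 1 and 97.3 in replicate 2, a ratio of 5.04. Counting left-out peaks as well, 22 members were bound, InR and kibra being the added genes, against 44.8% of all protein-coding genes. Of the 7817 protein-coding genes without a main-list promoter peak, 113 (1.45%) had a left-out one.

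Promoters of the regulators held both housekeeping motifs and, at the strongest gene, none of them near the TSS. Lst8 (chrX:9605940-9606049, minus strand), Mer (chrX:19693471-19693580, minus strand), kibra (chr3R:14724232-14724361, minus strand) and Tsc1 (chr3R:24130225-24130336, plus strand) are shown from dm6. Capitals mark DRE in Lst8 and kibra and the Motif 1 core in Mer. Tsc1 has no searched motif in the stretch shown, which spans the interval between the divergent starts of Tsc1 and GatB.
Lst8: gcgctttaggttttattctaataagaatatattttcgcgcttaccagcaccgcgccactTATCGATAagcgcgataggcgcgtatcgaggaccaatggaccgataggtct
Mer: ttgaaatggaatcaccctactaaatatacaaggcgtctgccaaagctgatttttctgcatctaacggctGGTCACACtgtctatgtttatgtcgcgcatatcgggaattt
kibra: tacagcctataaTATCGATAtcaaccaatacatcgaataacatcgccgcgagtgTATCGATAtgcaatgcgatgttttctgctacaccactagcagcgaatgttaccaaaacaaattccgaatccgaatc
Tsc1: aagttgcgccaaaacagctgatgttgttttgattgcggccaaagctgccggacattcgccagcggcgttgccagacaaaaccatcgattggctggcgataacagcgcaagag
The match began 21 bp before the TSS in Lst8 and 11 bp before it in Mer, and the copies in kibra began 88 and 46 bp before it. Over all members DRE occurred in 6 promoters, of which hpo, wts, raptor and Lst8 were bound at the 5′-most TSS and Pi3K92E and kibra were not. The Motif 1 core occurred in 4, mats, Mer, Max and Mnt, all of them bound. GAGA occurred in 8, of which Thor was bound at that TSS and Ilp6, Ilp8, ft, ds, fj, Akt and sd were not. By this stricter TSS 18 members were bound and 21 were not. DRE was in 4 of the 18 and 2 of the 21, against 18.6% and 2.68% of all bound and unbound promoters. For Motif 1 the counts were 4 and 0, against 16.1% and 1.58%. For GAGA they were 1 and 7, against 3.56% and 7.52%. The promoters of the 18 and 21 members had a median GC content of 35.5% and 45.7%, against 36% and 40% for all bound and unbound protein-coding promoters.

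Of the transcription factors and the coactivator Yorkie, Max stood highest. Max, the partner that Myc needs to bind DNA, had 292.8, with 108.6 in replicate 1 and 191.2 in replicate 2. Its summit lay 173 bp upstream of Max and 47 bp from the shared start of Mettl5 and CG42374 on the other strand. Mnt, the repressor that competes with Myc for Max, had 102.1, with 48.2 in replicate 1 and 62.1 in replicate 2. Its summit lay 267 bp upstream of Mnt and 32 bp from the TSS of Parg, and a second promoter summit of 81.4 lay near its internal TSS, 16.4 kb downstream. The value of replicate 2 belongs to that second summit, and at the first it was 53. Foxo, which Akt holds out of the nucleus, had 93.6 at 238 bp upstream, with 55.1 in replicate 2 and no peak in the ranking of replicate 1. Scalloped (sd), the DNA-binding partner of Yorkie, had the weakest call, 52.6, with 17.3 in replicate 1 and 38.8 in replicate 2 within 200 bp of the summit. It lay at 1 of 7 TSSs, 9.183 kb downstream of the first.

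Myc, a driver of growth, and yki, the effector of the Hippo branch, had no promoter call. Myc had a ranking peak of 19.7 (IDR 0.72) within 500 bp of its TSS, with 26.4 in replicate 2 and none in replicate 1. For yki the nearest main-list summit, 148.1, lay 595 bp upstream and 30 bp from the TSS of Gpat4, and a peak of 25.3 within the window was in the replicate 2 list. Their partners Max and sd had main-list peaks of 292.8 and 52.6. The E-box, the site of Myc and Max, occurred at mats and Ilp6 among the members and in 4.20% of all promoters.

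**Figure D3:**
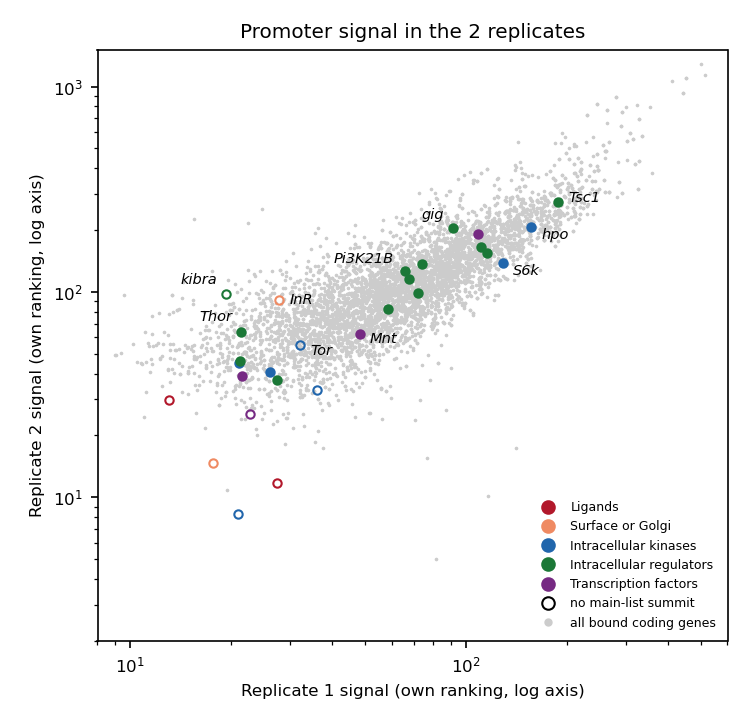
Strongest promoter peak of each gene in the unthresholded rankings of replicate 1 (horizontal, log axis) and replicate 2 (vertical, log axis), for genes with a peak in both. Coloured circles are members by role, open where the main list has no summit, and grey points are all bound protein-coding genes. The bound members lie within the grey cloud, with a median ratio of replicate 2 to replicate 1 of 1.56, against 1.63 over all bound genes.

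The replicates' own lists did not hold the same bound members. The ratio of the strongest promoter peak in replicate 2 to that in replicate 1, which need not be the same peak, had a median of 1.56 over 19 bound members (1.08 for S6k to 2.99 for Thor), against 1.63 over 6011 bound protein-coding genes (quartiles 1.32 and 2.03). Whether the signal in the rankings is normalised for depth is not stated, so a ratio above 1 cannot be read as stronger binding. Of the 20 bound members, 11 were in both replicates' lists, against 72.7% of all bound protein-coding genes. Another 8 were in the list of replicate 2 only, against 21.7%, and 1, raptor, was in neither. The 8 were Pdk1, wts, Pi3K21B, rictor, Thor, foxo, Mnt and sd, and except for Pi3K21B their main-list signals lay at or below 102.1.

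Some of the summits lay nearer to a neighbouring gene. Of the 20 bound members, 6 had their strongest summit nearer to another gene's TSS (Pdk1, S6k, Tsc1, sav, Max and Mnt), against 24.8% of all bound protein-coding genes. The summit of 7 members lay within 500 bp of another protein-coding gene's TSS, in all 7 cases on the opposite strand. The share of this over all bound protein-coding genes was not counted, so it cannot be called particular to the members. Whether the peak belongs to the member or to its neighbour cannot be told apart. If a summit counted only for the gene with the nearest TSS, 16 members were bound, against 35.4% of all protein-coding genes. For 11 of the 20 the summit lay within 100 bp of an own TSS, against 62.2% of bound protein-coding genes, and all 11 were within 50 bp.

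**Figure D4:**
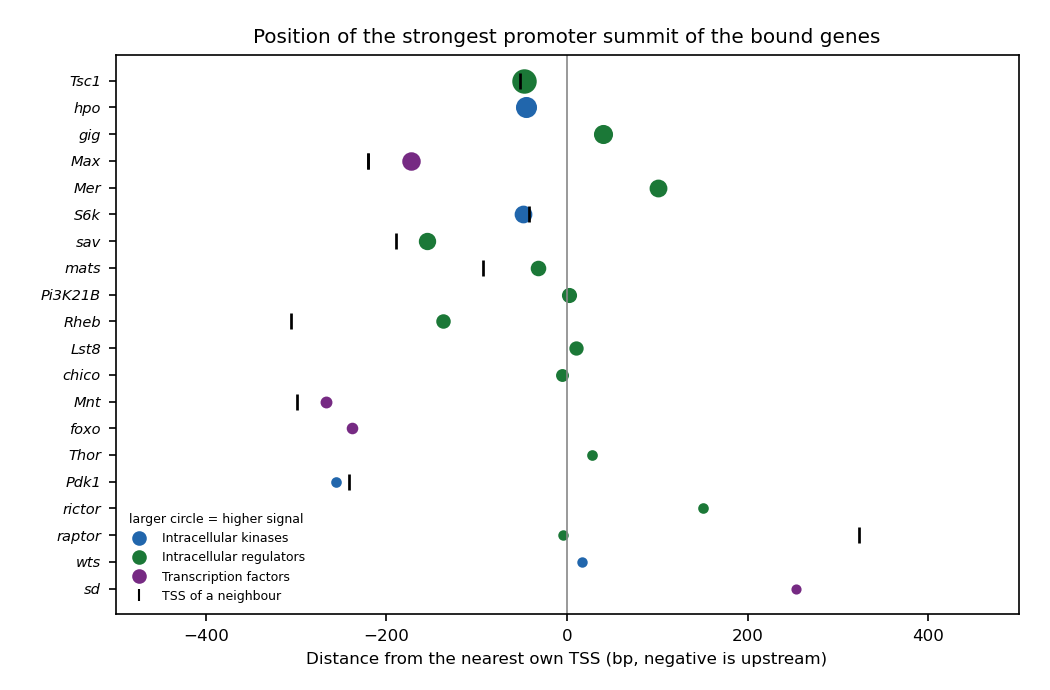
Position of the strongest promoter summit of the 20 bound members relative to the nearest own TSS (bp, negative is upstream), ordered by signal from Tsc1 at the top to sd. Circle size follows the signal, colours give the role, and black ticks mark the TSS of a neighbour. The summits of Tsc1 and S6k lie almost on the neighbour's tick, at 4 and 7 bp, and those of hpo and gig have no neighbour.

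Outside the promoter window, 10 members held 17 main-list summits inside the gene and over 500 bp from any own TSS. Such a summit was found in 7.91% of all protein-coding genes. The only such summits of mats (533 bp), Pi3K92E (582 bp) and Akt (625 bp) lay just outside the window. So did a summit in InR (654 bp) and another in wts (655 bp). Of the 17 summits 15 lay in introns and 2 in exons, and 0 lay within 500 bp of another gene's TSS. Their median signal was 95.3 (51.4 to 209.2). Long genes carried most of them: 7 of the 12 members over 10 kb had one, against 33.2% of the 1985 protein-coding genes of that length. Of those 12 members 6 had a promoter peak, against 43.3%. The wts gene, 17 kb long, had 4 intronic summits of 51.4, 55.7, 113.1 and 52 and one of 130.3 just past its 3′ end, so that 2 of these were above its promoter peak of 60.1. Mnt had intronic summits of 113.8 and 107.4 beside its promoter peaks of 102.1 and 81.4. Myc, with no promoter call, had 83.9 and 79.8 in an intron at 8 and 8.7 kb from its TSS, with 70 and 60.6 in replicate 2. Replicate 1 had none at the first of these and 24.2 at the second. Kibra had intronic summits of 95.3 and 111.1, ex one of 84.5 and foxo one of 53.5.

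**Figure D5:**
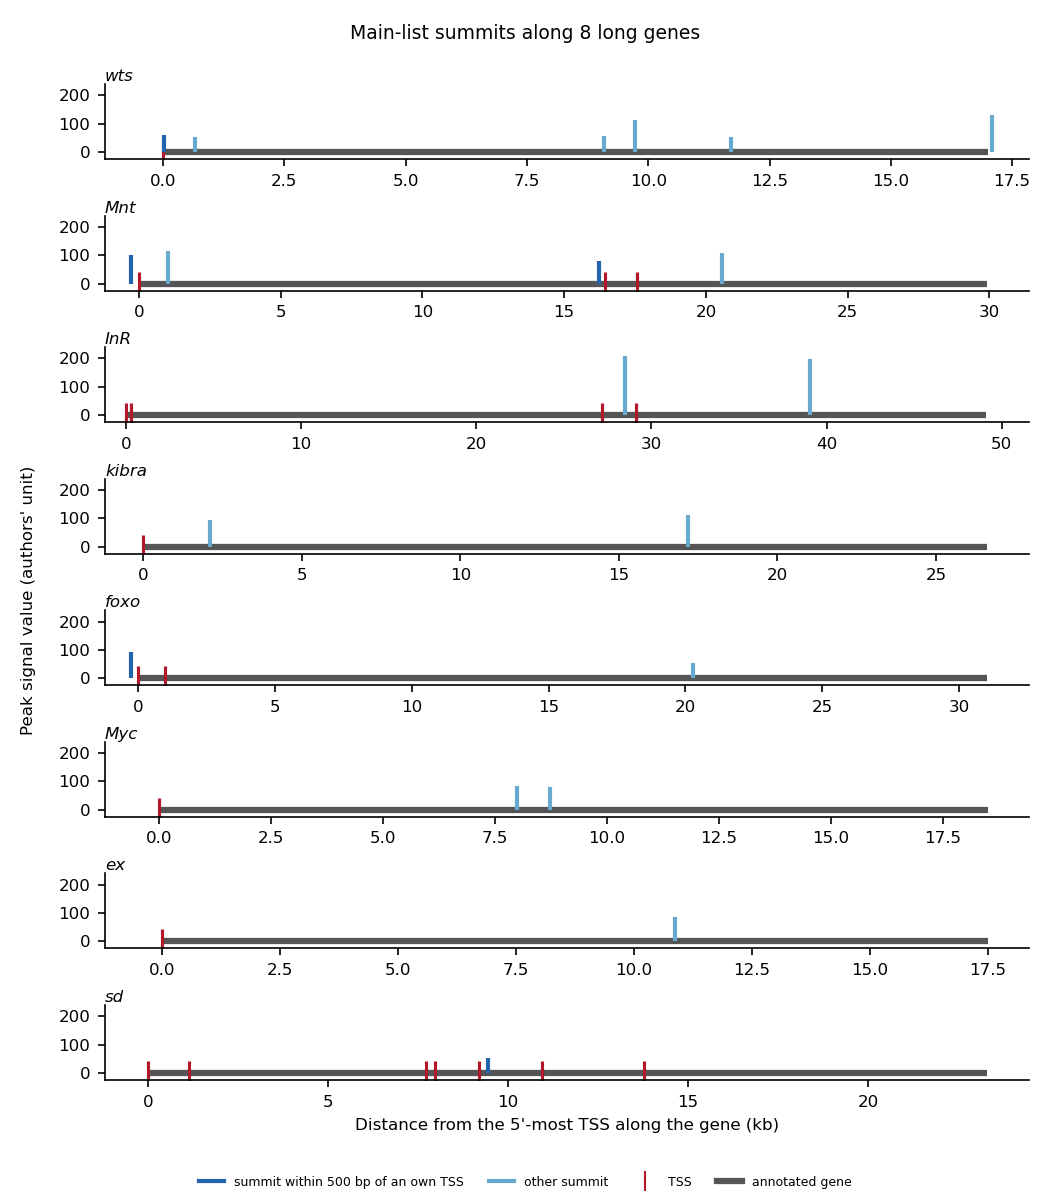
Main-list summits along 8 long members, drawn from the 5′-most TSS rightwards in the direction of transcription (kb), with bar height giving the peak signal in the authors' unit. Dark bars lie within 500 bp of an own TSS, light bars do not, red ticks are TSSs and the grey line is the annotated gene. In InR the bars of 209.2 and 198.5 stand away from all 4 TSSs, and in wts the bars of 113.1 and 130.3 exceed the promoter bar of 60.1.

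Other genes of these pathways were counted from 3 chosen lists, which are a selection made with earlier results of these data known. Of the 71 protein-coding genes in these lists 55 had a promoter peak (77.5%), against 44.0% of all protein-coding genes. The share was 51.3% of the 39 members, and 74.1% of the 27 members for intracellular proteins. Other TOR pathway genes had 21 of 26, with a median of 157.6. Their strongest peaks were at Nup44A (747.5) and RagC-D (552.1), whose products pass the amino acid signal to TOR, at REPTOR (553.4), a transcription factor that TOR restrains, and at Sesn (511.8), the fly sestrin. Among those without a call were chrb, path, pont and REPTOR-BP, and pont had a left-out peak of 295.5 in the ranking. Other Hippo pathway genes had 26 of 32, with a median of 134.6, led by Mob4 (455.5, summit nearer to Rab2), Patj (426.3), hppy (261.9) and Rassf (256.5). The atypical myosin gene d, the F-box gene Fbxl7, Schip1 and the polarity scaffold sdt had none. Other insulin pathway genes had 8 of 13, with a median of 111.5, led by the adaptor dock (434.4, summit nearer to CG3862), the TOR complex subunit Sin1 (245.2), conv (153.2, summit nearer to Sps1) and the phosphatase Ptp61F (118.5). ImpL2, Lgr3, Lnk and Sdr had no call. The 3 lists were not grouped by role, so they give no comparison of secreted or surface with intracellular products.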

How the data were processed

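MBD-R2-eGFP ChIP-seq was analysed from deposited peak lists (assembly dm6, per the labels). For aligner, peak caller and depth: not given in the sources used here. Each peak has a signal deposited by the authors, a deposited score that is a scaled IDR and, in the rankings, a deposited −log10 of the IDR; 32 columns of the rankings were not used. The main list and its ranking join both replicates, and each replicate has its own ranking and list. TSSs came from the Ensembl release 115 annotation of the same assembly and sequences from the RefSeq copy. All 39 symbols matched, Tor by synonym (mTor). Summits, windows, overlaps (at least 1 bp) and motif matches were computed with Python 3.11.15 and NumPy 2.4.6, and plots with Matplotlib 3.10.9. The window rule was tested on simulated summits at known distances, and the set outcome was recovered for 200 of 200 genes. That outcome was a call or no call, so the test checks the code and not the binding. Counts are set beside the share of all 13968 protein-coding genes, with no test. The members and lists were chosen with earlier results of these data known. All members are named; of each other list, the 4 strongest bound and the first 4 unbound in alphabetical order, and genes chosen for sharing a peak. Alternatives were other lists, thresholds, windows, TSS choices and peak-to-gene rules.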

Additional observations from a re-analysis of the deposited data

How the results depend on the processing

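Against 20 of 39 members bound in the main list, 12 were bound in the stronger 50 percent of its peaks and 34 in the unthresholded ranking, and the replicate lists gave 11 to 22. Ligands stayed at 0 in every thresholded alternative and reached 3 in the ranking, whose share over all protein-coding genes was 76.7%. Surface or Golgi genes reached 4 in the ranking, 1 with a 1000 bp window and 1 with the left-out peaks added, an alternative chosen after seeing the data. Kinases gave 2 in the stronger 50 percent, 7 in the ranking and 7 at 1000 bp, and 2 to 5 in the replicate lists. Transcription factors gave 2 in the conservative list, 1 in the stronger 50 percent, 1 where a peak had to cover a TSS, and 1 to 5 in the replicate lists. The other Hippo genes gave 15 in the stronger 50 percent and 16 to 24 in the replicate lists, and in the stronger 50 percent the other TOR genes gave 12 and the other insulin genes 4. The cause of these shifts was not tested, beyond the fewer or more peaks that each list holds by construction. The median signal of bound members over that of all bound genes was 1.03, and 0.734 to 1.37 over the alternatives. The lowest came from counting a summit only for the gene with the nearest TSS, and the highest from the replicate 1 list. Across 11 thresholded alternatives, hpo, chico, gig, Rheb, Lst8, mats and Mer were always bound, and Ilp1 to Ilp8, ft, ds, fj and Myc never. No paired analysis was possible because there is 1 group and no test. Of the 20 bound members 8 were in the list of replicate 2 only, and since depth is unknown its part in this was not tested.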
